A study of Mus musculus with 8 samples.

Results

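The transcription factors and the cytokine that direct helper and regulatory T cells were followed in whole 4T1.13 mammary tumours whose injected cells carried a control vector or a vector that sequesters miR-21. The 9 members were set by name as Foxp3, Ikzf2, Tbx21, Ifng, Bcl6, Maf, Eomes, Prdm1 and Tcf4, and their rows were taken by Entrez identifier from a table of 27179 genes. All 9 were present, and all 9 were among the 14382 genes with enough counts to be tested. 4T1.13 is a metastatic mammary carcinoma line of the BALB/c mouse. Both groups were grown from 100000 cells placed in the mammary fat pad of female BALB/c mice, whose T cells are intact, and the labels give day 14 for their recovery, whereas the methods give an earlier day. The VC group (n = 4) carried a lentiviral vector with a scrambled RNA, and the miR-21-KD group, here KD (n = 4), carried the same vector with an RNA that sequesters mature miR-21 under the H1 promoter. Both vectors also held mCherry and hygromycin resistance, each line was a pool of single-cell clones, and the vector was in the injected tumour cells and not in the T cells of the host. RNA came from whole tumours. The level of a gene therefore adds up all cells that express it, and fewer cells of a type cannot be told apart from less RNA per cell.

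CD4 T cells take on different roles under a small set of lineage regulators. Tbx21 encodes T-bet, which drives the T helper 1 (Th1) programme with interferon gamma, the product of Ifng, as its main cytokine. Foxp3 is the defining factor of regulatory T cells (Tregs), Bcl6 that of follicular helper T cells (Tfh), and Prdm1, which encodes Blimp-1, opposes Bcl6. In tumours, Th1 cells help the killing of tumour cells, while Tregs restrain it.

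The small RNA that the knockdown vector sequesters is shown first, since it defines the groups. Its seed, bases 2 to 8, is in capitals, and the sequence is that of RefSeq (GRCm38.p6, chr11:86584120-86584141, minus strand).
mmu-miR-21a-5p: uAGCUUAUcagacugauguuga
The complement of the seed, ATAAGCT, was searched in the longest annotated 3′ untranslated region of each gene of GENCODE M21. It occurred in 1497 of 20981 genes (7.14%) and in 1 of the 9 members. That member was Maf, with the match in capitals at base 3275 of 4316 of this region.
Maf: ctccaagcatATAAGCTaggga
A match is only a stretch of letters, and its use as a target site was not tested. The precursor gene Mir21a had 0 counts in all 8 tumours, so this table held no check of the knockdown, which in any case acts on the mature RNA.

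The libraries were of like depth, with 12134849 to 13592695 counts in VC and 12550898 to 12783800 in KD tumours. VC replicate 4 stood apart from the other VC tumours. The summed level of the 8 B cell markers tested was 230.3 CPM (counts scaled to the library size and by TMM) in VC replicate 4, against 24.8 to 33.6 CPM in the other VC tumours and 63.5 to 148 CPM in KD tumours. For the 6 plasma cell markers tested these sums were 1919 CPM, 374 to 497 CPM and 474 to 662 CPM. Its 15 T cell markers summed to 210.2 CPM, against 55.9 to 132 CPM in the other VC tumours and 194 to 406 CPM in KD tumours. The comparisons of the 9 regulators are therefore given with this tumour and, where a call differs, without it. Its omission takes out the VC tumour with the most T cell marker RNA. That raises the KD over VC difference of genes that follow T cells, so calls gained by it are no independent support.

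**Figure D1:**
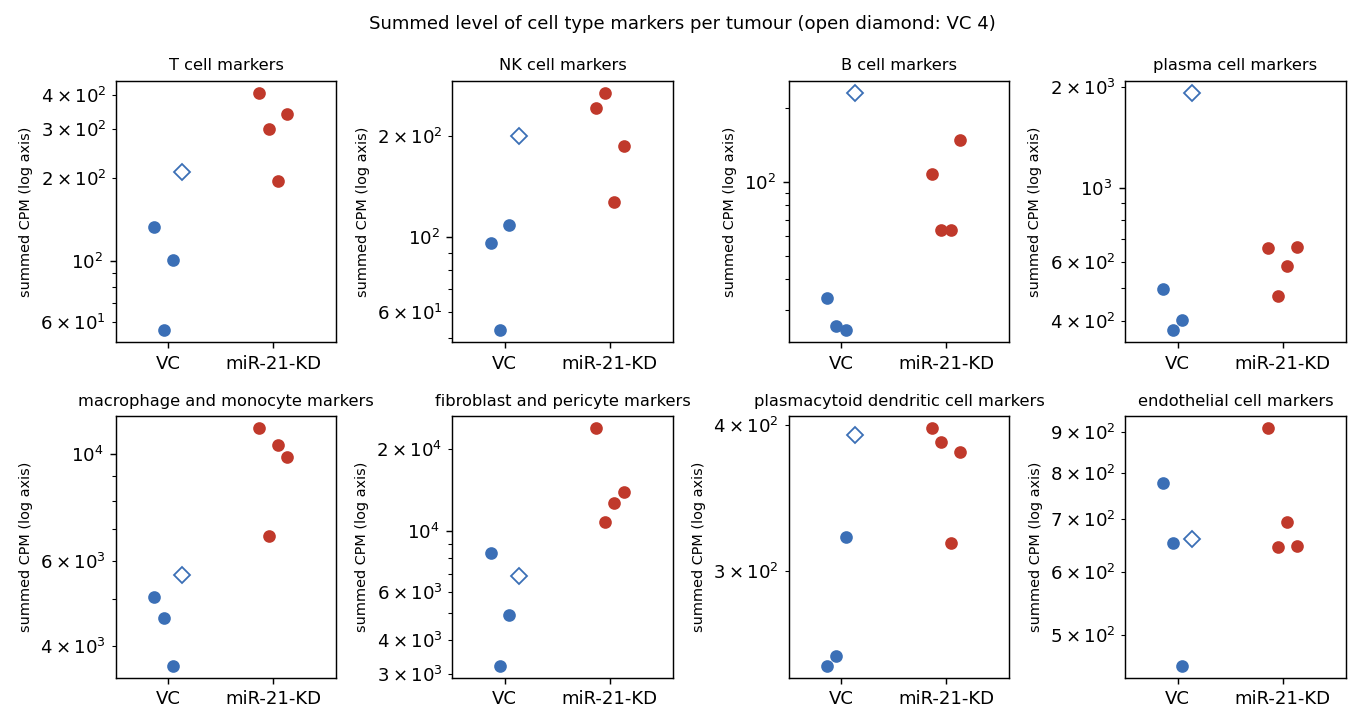
Summed CPM of the tested marker genes of 8 cell types in each tumour on log axes, with VC in blue and KD in red. The open diamond is VC replicate 4, which had 1919 CPM of plasma cell markers, above all 7 other tumours, while the 4 KD tumours were higher than every VC tumour for macrophage and monocyte and for fibroblast and pericyte markers.

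Of the 9 regulators, 4 were higher in the KD group with an adjusted p below 0.05 (Foxp3, Maf, Eomes and Prdm1) and 1 was lower (Tcf4), by the quasi-likelihood test of edgeR with Benjamini-Hochberg adjustment over all 14382 genes. Among all tested genes 39.1% passed, 19.6% as higher and 19.5% as lower. The remaining 4 (Ikzf2, Tbx21, Ifng and Bcl6) did not pass. The median log2 fold change of the 9 was 0.77, against -0.01 over all tested genes. The CPM of both groups did not overlap for Foxp3, Maf and Eomes, which were higher in every KD tumour, and for Tcf4, which was lower in every one; the background was 35.2% of genes without overlap, 16.3% with KD above and 18.9% with KD below. Without VC replicate 4, Tbx21 and Ifng passed as well, so that 6 were higher and 1 lower, where the background for higher genes was 20.4%. All 6 were then without overlap, against 23% of genes with KD above and 47.7% without overlap in either direction. The number past the threshold fell to 2 without VC replicate 3 (Maf and Eomes), where 20.1% of all genes passed, to 3 without VC replicate 2 (Foxp3, Maf and Eomes), where 22.5% passed, and to 3 without KD replicate 1 (Maf, Eomes and Tcf4), where 26.5% passed. The share of 2 of 9 was near that of all genes.

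**Figure D2:**
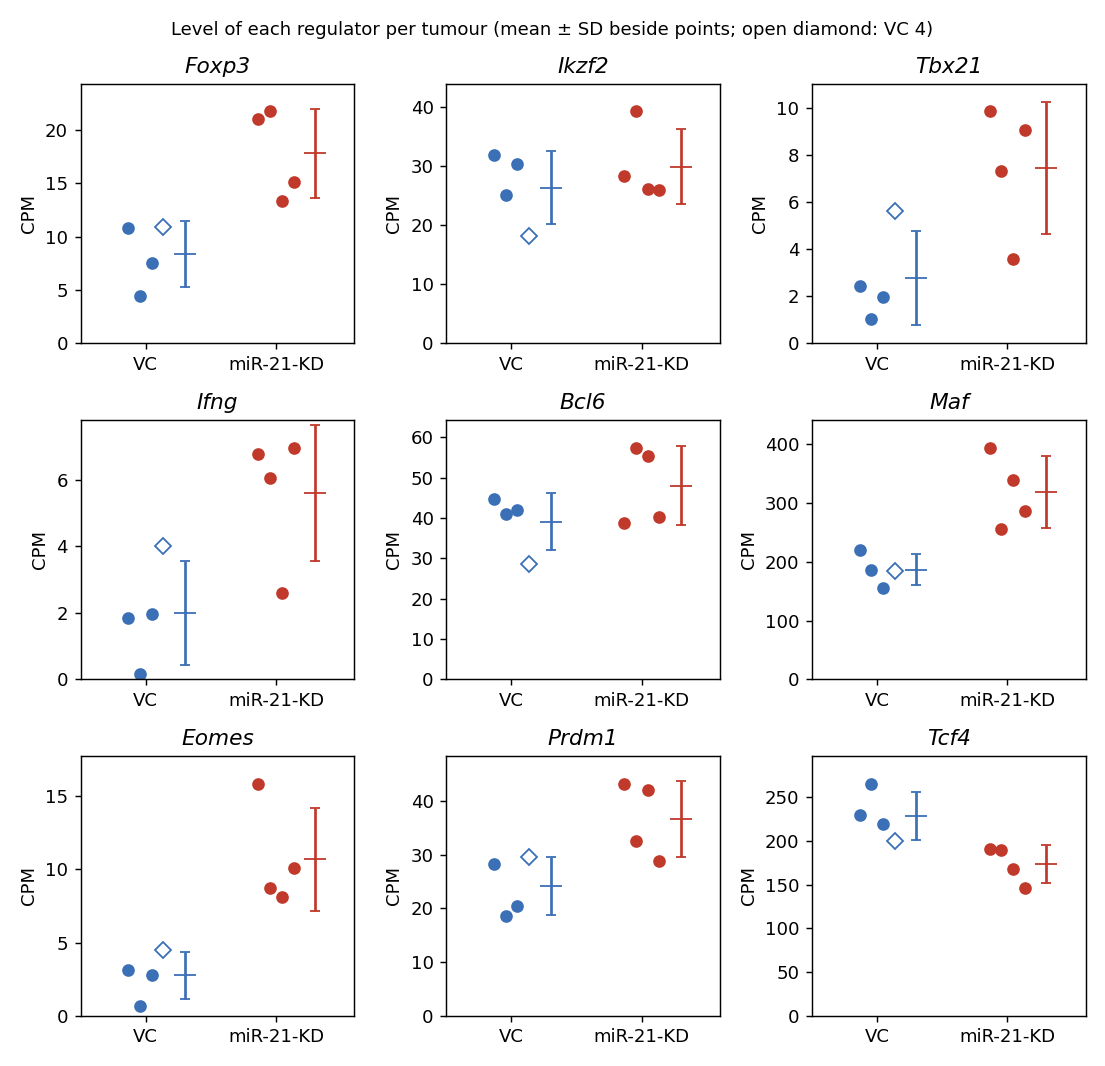
CPM of each regulator in the 4 VC (blue) and 4 KD (red) tumours, with the mean and SD beside the points and VC replicate 4 as an open diamond. Foxp3, Maf and Eomes are higher in all 4 KD tumours than in any VC tumour and Tcf4 is lower, while Tbx21 and Ifng overlap through VC replicate 4 at 5.64 and 4.01 CPM.

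The Treg factor Foxp3 (Entrez 20371, chrX:7573644-7595245) rose. It had 10.8, 4.39, 7.57 and 10.9 CPM in VC replicates 1 to 4 and 21.0, 21.8, 13.3 and 15.2 CPM in KD replicates 1 to 4. The lowest KD tumour was above the highest VC tumour. The means were 8.42 ± 3.10 and 17.8 ± 4.21 CPM (SD, n = 4 each), and the log2 fold change was 1.08 (standard error, SE, 0.30, edgeR adjusted p = 0.0231). The adjusted p was 0.0657 without VC replicate 3 and 0.0570 without KD replicate 1. In the annotation, Foxp3 overlaps Ppp1r3f, Ccdc22 and, over the whole 21602 bases of the gene, Gm36995 on the other strand, and Flicr on its own. The strand setting of the counting is not given in the sources used here, so reads of these genes could be mixed. The overlaps are of whole gene spans, introns included, and shared exon bases were not measured. The same holds for Ifng, which shares 2722 bases with Gm49751 on its own strand, and for Ikzf2, Bcl6, Maf, Eomes and Tcf4, each of which overlaps at least 1 other annotated gene, over up to 16494 bases (Ikzf2).

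Ikzf2 (Entrez 22779, chr1:69531214-69687245) encodes Helios, a factor of the Ikaros family that many Tregs express together with Foxp3. It had 31.8, 25.1, 30.3 and 18.1 CPM in VC and 28.3, 39.2, 26.1 and 25.9 CPM in KD tumours. The groups overlapped, and the difference did not exceed the tumour-to-tumour spread, with a log2 fold change of 0.18 (SE 0.21, edgeR adjusted p = 0.497). The difference in log2 CPM between Foxp3 and Ikzf2 was -1.68 ± 0.74 in VC and -0.75 ± 0.23 in KD tumours (SD, n = 4 each). VC replicate 4, at -0.72, fell among the KD tumours, which ranged from -0.97 to -0.43.

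The Th1 factor Tbx21 (Entrez 57765, chr11:97098071-97115331) had 2.43, 1.04, 1.97 and 5.64 CPM in VC and 9.86, 7.31, 3.57 and 9.08 CPM in KD tumours. VC replicate 4 lay above KD replicate 3, and all other VC tumours lay below all KD tumours. The means were 2.77 ± 1.999 and 7.46 ± 2.80 CPM (SD, n = 4 each), with a log2 fold change of 1.43 (SE 0.51, edgeR adjusted p = 0.0527). With the replicate number as a block it passed, at 1.54 (SE 0.39, adjusted p = 0.0233), it was 1.66 without KD replicate 3 (adjusted p = 0.0463), and without VC replicate 4 it was 2.02 (SE 0.43, adjusted p = 0.0135).

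Ifng (Entrez 15978, chr10:118441046-118445892) had the fewest reads of the 9, with 2 to 49 counts per VC tumour and 32 to 89 per KD tumour. Its levels were 1.84, 0.160, 1.97 and 4.01 CPM in VC and 6.79, 6.05, 2.60 and 6.97 CPM in KD tumours. As for Tbx21, the lowest KD tumour was replicate 3 and only VC replicate 4 lay above it. VC replicate 2, with 2 counts, was below the 3 counts that a count of 0 allows. The log2 fold change was 1.49 (SE 0.66, edgeR adjusted p = 0.0997), which did not pass. Without VC replicate 4 it was 2.06 (SE 0.66, adjusted p = 0.0404).

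Eomes (Entrez 13813, chr9:118478212-118486132) encodes the T-box factor related to T-bet that marks memory CD8 T cells and mature NK cells. It changed most among the 9. VC tumours had 3.10, 0.638, 2.76 and 4.50 CPM, and KD tumours had 15.8, 8.73, 8.12 and 10.1 CPM. Every KD tumour was above every VC tumour, VC replicate 4 included. The means were 2.75 ± 1.595 and 10.7 ± 3.53 CPM (SD, n = 4 each), which is a 3.88-fold difference or 1.96 on the log2 scale (SE 0.48, edgeR adjusted p = 0.0160). Of the tested genes, 97.4% had a log2 fold change no higher. The difference on the log2 scale between Tbx21 and Eomes was 0.03 ± 0.50 in VC and -0.56 ± 0.46 in KD tumours (SD, n = 4 each). The groups overlapped, and the value was lower in the KD tumour of all 4 pairs with the same replicate number.

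The 300 bases around the annotated start sites of these 3 genes of the Th1 and cytotoxic programme are shown because they had the largest fold changes of the 9. Sequences come from RefSeq (GRCm38.p6), whose table matched 6 of the 9 members with 8 windows, each spanning 1 annotated start site. T-box factors bind the core GGTGTG, and E proteins such as that of Tcf4 bind E-boxes such as CACCTG. Capitals mark matches to either, on both strands.
Tbx21, chr11:97115282-97115581, minus strand: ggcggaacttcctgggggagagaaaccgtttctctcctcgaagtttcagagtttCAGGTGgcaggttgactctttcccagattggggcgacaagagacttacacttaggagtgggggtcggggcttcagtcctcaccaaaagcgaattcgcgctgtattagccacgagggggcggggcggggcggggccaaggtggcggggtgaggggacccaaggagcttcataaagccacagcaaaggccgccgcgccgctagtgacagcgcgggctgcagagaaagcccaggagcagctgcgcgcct
Ifng, chr10:118440796-118441095, plus strand: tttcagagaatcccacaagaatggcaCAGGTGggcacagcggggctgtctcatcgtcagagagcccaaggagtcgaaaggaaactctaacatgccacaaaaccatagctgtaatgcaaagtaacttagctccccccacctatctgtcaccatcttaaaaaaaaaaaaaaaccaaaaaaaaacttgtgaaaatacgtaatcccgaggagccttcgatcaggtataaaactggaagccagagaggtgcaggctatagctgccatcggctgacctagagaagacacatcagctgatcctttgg
Eomes, chr9:118477939-118478238, plus strand: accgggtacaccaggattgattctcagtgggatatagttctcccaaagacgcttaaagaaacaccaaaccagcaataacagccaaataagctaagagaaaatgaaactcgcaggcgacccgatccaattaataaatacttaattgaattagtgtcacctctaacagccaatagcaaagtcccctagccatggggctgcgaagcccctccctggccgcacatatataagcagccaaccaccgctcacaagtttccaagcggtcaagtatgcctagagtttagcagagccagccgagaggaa
The T-box core occurred in none of the 8 windows, where 19% of all 32851 windows of this length held it. The E-box occurred in 3 of the 8, namely Tbx21, Ifng and Prdm1 and not Eomes, whose window has no capitals, against 20.2% of all windows. A match is a description of the letters and not a binding site, and absence covers this window alone. The other motifs searched, on both strands, were the forkhead motif GTAAACA (1 of the 8 windows against 3.65% of all), BCL6 TTCCTNGAA (1 against 1.59%), PRDM1 GAAAGTG (0 against 4.81%), MAF TGCTGA (1 against 19.5%) and Ikaros TGGGAA (3 against 25.6%).

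Bcl6 (Entrez 12053, chr16:23965052-23988852) had 44.7, 40.9, 41.9 and 28.7 CPM in VC and 38.8, 57.4, 55.4 and 40.2 CPM in KD tumours. The ranges overlapped and the difference did not exceed that spread (log2 fold change 0.30, SE 0.18, edgeR adjusted p = 0.213). VC replicate 4, the tumour with the most B cell and plasma cell transcripts, was the lowest of the 8 for both Bcl6 and Ikzf2.

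Maf (Entrez 17132, chr8:115682942-115707794) encodes c-Maf, which acts in Tfh cells, in T cells that make interleukin 10 and in macrophages. It rose with the smallest adjusted p of the 9. VC tumours had 220.3, 186, 155 and 185 CPM, and KD tumours had 394, 256, 340.1 and 287 CPM, without overlap. The log2 fold change was 0.77 (SE 0.16, edgeR adjusted p = 0.00962). Maf was also the most abundant of the 9 per length of exon, with 22.7 CPM per kb in VC and 38.7 CPM per kb in KD tumours, above Cd4 at 5.57 and 16.4 CPM per kb. Of the 12 macrophage and monocyte markers 9 were higher and none lower (11 higher without VC replicate 4), and their sums were 3632 to 5600 CPM in VC and 6743 to 11310 CPM in KD tumours. Of the 10 fibroblast and pericyte markers 8 were higher and none lower (6 higher without VC replicate 4), with sums of 3216 to 8315 CPM and 10790 to 23850 CPM. Within the groups, Maf followed the mean log2 CPM of the endothelial, fibroblast and pericyte, and macrophage and monocyte lists with r of 0.833, 0.775 and 0.648, and that of the keratinocyte and squamous list with r of 0.689, over the 8 tumours, as a description. The part of these cells in the result was not tested.

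Prdm1 (Entrez 12142, chr10:44437177-44528501) is expressed by effector T cells, Tregs and plasma cells. VC tumours had 28.2, 18.6, 20.5 and 29.5 CPM and KD tumours 43.2, 32.5, 42.0 and 28.9 CPM. Only VC replicate 4 lay above the lowest KD tumour, replicate 4. The log2 fold change was 0.60 (SE 0.19, edgeR adjusted p = 0.0387). It did not pass without replicates 2 or 3 of VC or without replicates 1 or 3 of KD (adjusted p of 0.0975, 0.106, 0.0955 and 0.0977). Of the 6 plasma cell markers 1 was higher and none lower, with a median log2 fold change of -1.53, and without VC replicate 4 these were 2 higher and 1.70. Their part in the result was not tested.

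Tcf4 (Entrez 21413, chr18:69343356-69689079) was the only member to fall. It encodes the E protein E2-2, the lineage factor of plasmacytoid dendritic cells, which is also made by many cells that are not of the immune system. It should not be confused with Tcf7, which encodes the T cell factor TCF-1. VC tumours had 229, 265, 219 and 200.3 CPM and KD tumours 191, 189, 168 and 146 CPM, without overlap. The log2 fold change was -0.40 (SE 0.12, edgeR adjusted p = 0.0318). Single tumours decided this call, which was lost without VC replicate 1, 2 or 3 and without KD replicate 3 or 4 (adjusted p of 0.0584, 0.0856, 0.0633, 0.0774 and 0.0802), although the direction held. Of the 10 plasmacytoid dendritic cell markers, 4 were higher and none lower with all tumours. Without VC replicate 4, 5 were higher and 1 lower, and with the replicate block 4 were higher and 1 lower. Siglech, a surface receptor gene of these cells, rose from 6.69 ± 2.68 to 23.8 ± 8.29 CPM (SD, n = 4 each, edgeR adjusted p = 0.00990), while Runx2 and Bst2, which did not pass, had log2 fold changes of -0.39 (adjusted p = 0.101 and 0.244 in turn). Endothelial markers, of which 1 of 8 was higher and none lower (that gene did not pass without VC replicate 4, and 1 was lower with the block), had a median log2 fold change of -0.01.

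**Figure D3:**
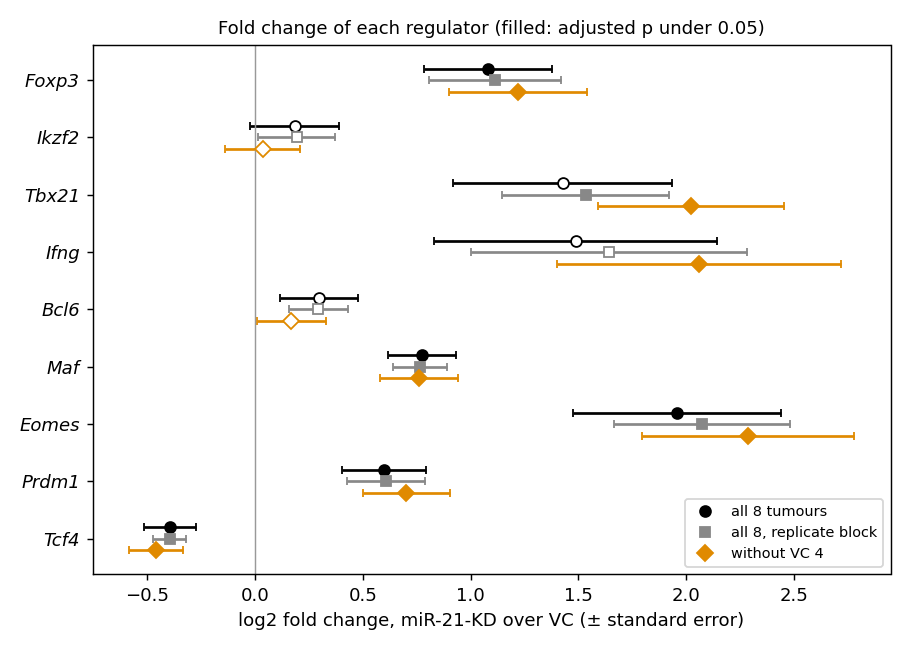
Log2 fold change of each regulator (KD over VC, with its standard error) from edgeR with all 8 tumours, from the blocked fit, and without VC replicate 4; filled symbols have an adjusted p under 0.05. Tbx21 is filled only with the block and without VC replicate 4, and Ifng only without VC replicate 4 (log2 fold change 2.06), while Ikzf2 and Bcl6 are open in each fit.

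The label of the group was checked against T cell markers. Of the 15 T cell genes tested, 11 were higher in KD tumours and none lower, with a median log2 fold change of 1.38, and all 15 were higher without VC replicate 4. Cd3e rose from 9.65 ± 4.73 to 27.9 ± 8.90 CPM (SD, n = 4 each, edgeR adjusted p = 0.0166), Cd4 had a log2 fold change of 1.56 (adjusted p = 0.0128) and Cd8a, which did not pass, of 1.13 (adjusted p = 0.261). Without VC replicate 4, Cd4, Cd8a and Cd8b1 were all 3 higher, and their median log2 fold change went from 1.27 to 2.28. That omission took out the VC tumour with the highest sum of T cell markers, which favours such calls. Per length of exon, Foxp3, Ifng, Tbx21 and Eomes (0.661 to 1.84 CPM per kb in VC and 2.58 to 4.33 in KD tumours) were below all 3 CD3 chain genes (2.36 to 4.72 and 6.83 to 11.4 CPM per kb). Maf, Tcf4 and Bcl6, at 22.7, 8.34 and 5.83 CPM per kb in VC tumours, were above all 3 there, whereas in KD tumours Maf (38.7) was above all 3, Bcl6 (7.16) was above Cd3e alone and Tcf4 (6.34) was below all 3. The share of each cell type in these levels was not tested.

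Each regulator was then set against the T cell genes of the same tumour, as its log2 CPM minus the mean log2 CPM of the 15 genes. That mean was 2.63 ± 0.80 in VC and 4.11 ± 0.47 in KD tumours (SD, n = 4 each), with VC replicate 4 (3.54) above KD replicate 3 (3.45). On this scale the median difference over all tested genes, KD minus VC, was -1.48, and 42.9% of genes had no overlap, 42.6% with KD below and 0.216% with KD above. Among the members, Tcf4 was lower without overlap and the other 8 overlapped.

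Tbx21 stayed at nearly the same level relative to T cell genes, with -1.32 ± 0.22 in VC and -1.27 ± 0.20 in KD tumours (SD, n = 4 each), and the difference of 0.05 ranged from -0.02 to 0.15 when single tumours were left out. Ifng was at -2.01 ± 0.88 and -1.67 ± 0.25, with VC replicate 2 far below at -3.29. Foxp3 was at 0.38 ± 0.31 in VC and 0.03 ± 0.33 in KD tumours. The VC tumours other than replicate 4 lay between 0.48 and 0.57, above all 4 KD tumours (-0.33 to 0.32), and VC replicate 4 lay among the latter at -0.08. Eomes had the largest upward difference, of 0.63, from -1.35 ± 0.44 to -0.72 ± 0.28. Of its KD tumours 3 were above all VC tumours and replicate 2 (-0.98) was below VC replicate 3 (-0.92). Tumours of the same replicate number were also compared as pairs, though no source states such a pairing. Eomes was higher in all 4 pairs, by 0.41 to 0.98, and Foxp3, Ikzf2, Bcl6 and Tcf4 were lower in all 4. Maf and Prdm1 were lower in 3, Ifng was higher in 3 and Tbx21 was higher in 2. Ikzf2, Bcl6, Maf and Prdm1 had differences of -1.28, -1.18, -0.71 and -0.87, each closer to 0 than the median of all genes. With single tumours left out, the difference of Maf ranged from -1.01 to -0.37, the latter without VC replicate 2, and that of Foxp3 from -0.50 to -0.23. These ratios carry no test, and they take the T cell list as the measure of T cell RNA, whatever cells the member itself comes from.

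**Figure D4:**
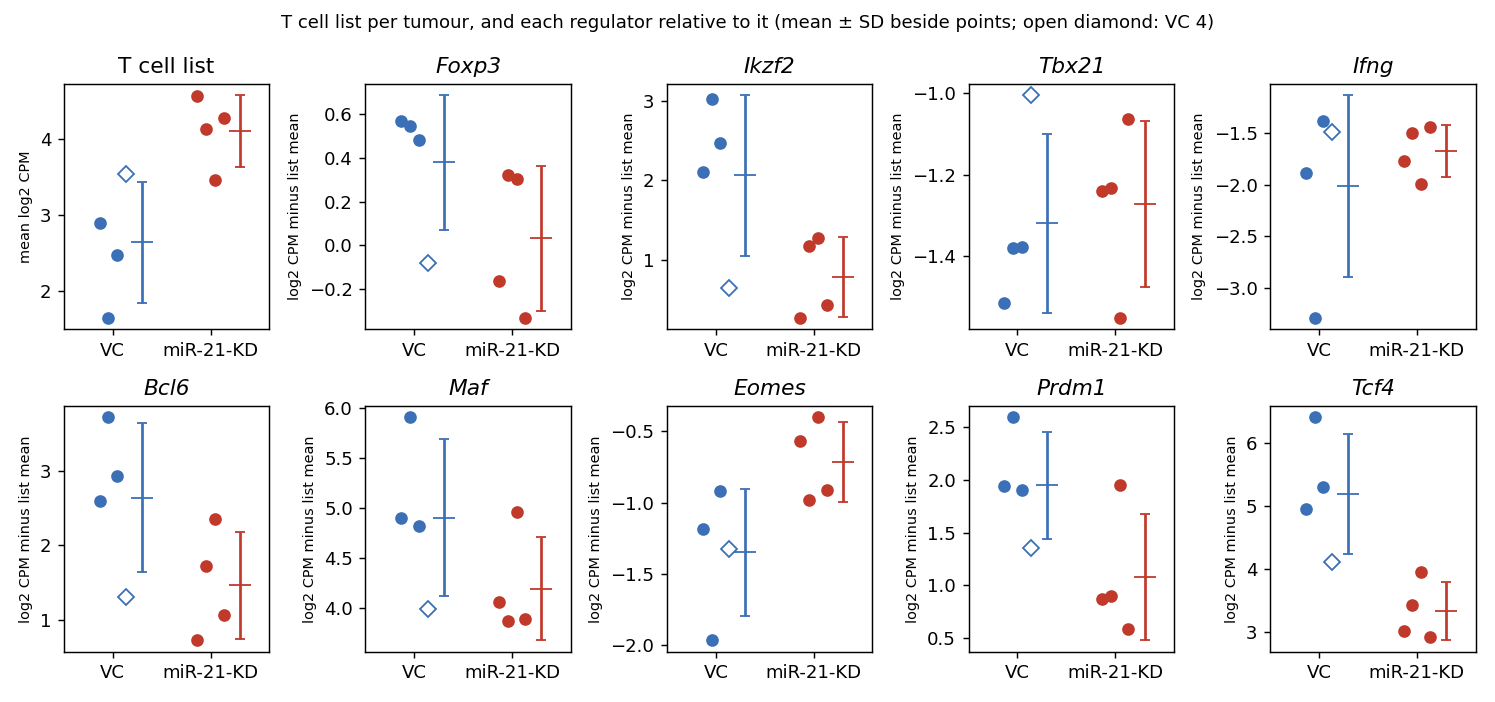
Mean log2 CPM of the T cell list (first panel) and log2 CPM of each regulator minus that mean (other panels) in each tumour, with mean and SD beside the points and VC replicate 4 as an open diamond. Tbx21 lies at -1.32 in VC and -1.27 in KD tumours, Eomes is higher by 0.63 with an overlap of 1 tumour in each group, and Tcf4 is lower in all 4 KD tumours.

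The genes that work with the 9 regulators were counted by programme, in lists that hold none of the 9. Of the 15 Treg-associated genes tested, 10 were higher and 1 lower, with a median log2 fold change of 1.09 (11 and 1 without VC replicate 4). The interleukin 2 receptor chain Il2ra rose from 19.6 ± 7.52 to 45.3 ± 9.32 CPM (SD, n = 4 each, edgeR adjusted p = 0.0145) and the inhibitory receptor gene Ctla4 by 1.13 on the log2 scale (adjusted p = 0.0305). Ikzf4, Itgae and Tnfrsf4 had log2 fold changes of 1.40, 1.17 and 1.09. The gene that fell was Nt5e, which encodes the ectoenzyme CD73 found on Tregs and on many other cells, from 801 ± 196 to 243 ± 85.2 CPM (SD, n = 4 each, edgeR adjusted p = 0.00667).

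Of the 14 Th1 regulators and receptors, 7 were higher and none lower (median 0.56), and 8 were higher without VC replicate 4. Runx3, the partner of T-bet at Ifng, rose by 0.61 on the log2 scale (adjusted p = 0.00906), Il18r1 by 1.58, Cxcr6 by 1.72 and Stat4 by 1.31. Of the 18 genes that interferon gamma induces, 3 were higher (Socs1, Nos2 and Ido1, with log2 fold changes of 0.66, 1.02 and 1.25) and none lower, with a median of 0.15. Without VC replicate 4, 5 were higher and the median was 0.46. The share of 3 of 18 was near the 19.6% of all genes that were higher.

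In the Th2 list, 6 of 9 genes were higher and none lower (median 0.91). The cytokine genes Il5 and Il13 rose from 0.884 ± 0.596 to 8.96 ± 4.48 CPM and from 4.32 ± 1.88 to 17.8 ± 7.30 CPM (SD, n = 4 each), with log2 fold changes of 3.32 and 2.05 (adjusted p = 0.00673 and 0.00953 from edgeR). The receptor gene Il4ra rose by 0.91 and Il1rl1 by 0.88 on the log2 scale. At means of 539.5 CPM in VC and 1014 CPM in KD tumours, Il4ra was far above Cd4 (22.5 and 66.1 CPM). Which cells made the transcripts of this list was not tested. Gata3, the Th2 factor, did not pass, with a log2 fold change of -0.53 (SE 0.36, adjusted p = 0.260); luminal mammary epithelium also expresses it. Without VC replicate 4, 4 of 9 were higher.

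Of the genes of the Th17 programme, Batf and Rora were higher, with log2 fold changes of 1.01 and 2.10 (edgeR adjusted p = 0.00922 and 0.0118), and Ahr was lower at -0.65 (adjusted p = 0.00941). The cytokine genes Il17a, Il17f and Il22 and the receptor gene Il23r did not reach the count minimum. Of the 10 Tfh-associated genes, 6 were higher and none lower (median 1.44), with 9 higher without VC replicate 4. Ascl2, Tox2, Icos and Slamf6 had log2 fold changes of 2.54, 2.30, 1.19 and 1.41, although Bcl6 itself did not pass. Of the 13 regulators of naive and memory T cells, 9 were higher and none lower (median 0.86, and 10 higher without VC replicate 4), among them Ccr7, Id2, Il7r and S1pr1 with log2 fold changes of 1.65, 1.02, 1.71 and 1.25. Tcf7 did not pass (0.67, SE 0.30, adjusted p = 0.107).

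**Figure D5:**
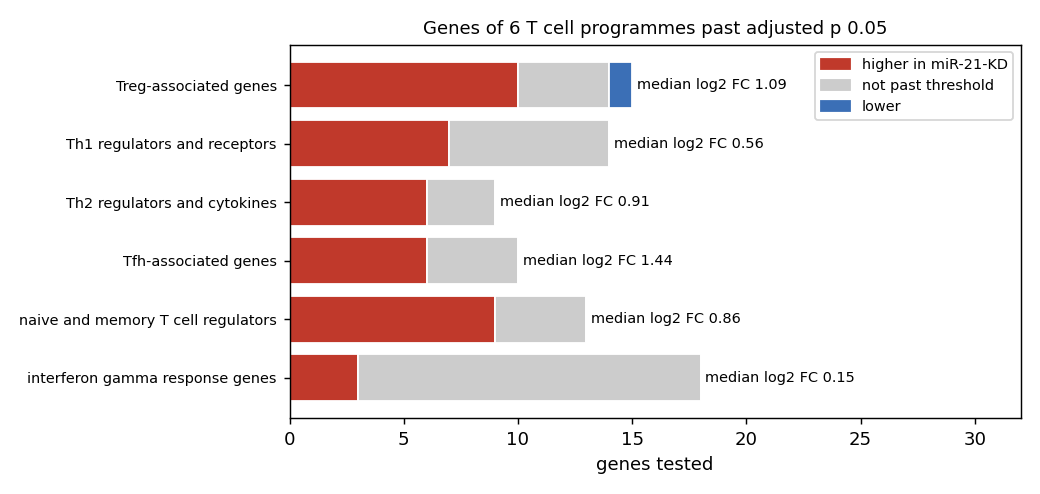
Number of tested genes of 6 T cell programmes that were higher (red) or lower (blue) in KD tumours at an adjusted p under 0.05 or did not pass (grey), with the median log2 fold change. The Treg-associated list has 10 of 15 higher and the interferon gamma response list 3 of 18.

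The genes that followed each regulator most closely from tumour to tumour were found by Pearson's r of log2 CPM over the 8 tumours after removal of the group means, among 13095 genes. The values describe the 8 libraries alone, since the best of many genes is high by construction. For Tbx21 they were Trbc2, Cd247 and Cd8a (r of 0.994, 0.994 and 0.993). For Ifng they were Trgc2, Ubd and Nmrk1 (0.994, 0.993 and 0.989), and for Eomes Klrb1f, Rab37 and Klrb1c (0.992, 0.985 and 0.984), of which the Klrb1 genes are paralogs of NK cells whose reads could be exchanged. For Foxp3 they were Dntt, Ccr7 and Klk1 (0.989, 0.978 and 0.974), for Maf Snap29, Abca9 and Gda (0.984, 0.983 and 0.978), and for Prdm1 Il31ra, Pira2 and Sesn2 (0.960, 0.958 and 0.957). Ikzf2 went with Sspo, Helb and Zfp948 (0.981, 0.979 and 0.969), Bcl6 with Itgav, Afdn and Loxl4 (0.994, 0.989 and 0.988) and Tcf4 with Rsu1, Eogt and Atxn1l (0.992, 0.981 and 0.977). Between 22 genes (Prdm1) and 427 genes (Bcl6) had an r over 0.9 with a member. Tbx21 followed the mean of the T cell list with r of 0.98. It also followed the NK cell (0.923), plasmacytoid (0.904) and conventional dendritic cell (0.902) and B cell (0.849) lists. Over 8 tumours such an r can rest on a single tumour, such as VC replicate 4.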

How the data were processed

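RNA sequencing of 8 whole tumours (4 VC, 4 miR-21-KD) was analysed. The authors deposited raw counts without normalization, 1 row per Entrez identifier; the submitters' processing notes name Subread, featureCounts, edgeR, limma and the build mm10, and the settings are not given in the sources used here. Symbols came from RefSeq (GRCm38.p6) for 25275 of 27179 identifiers, and positions and exon lengths from GENCODE M21 (GRCm38). In R 4.3.3 with edgeR 4.0.16, filterByExpr (minimum count 10, minimum total 15) kept 14382 genes, libraries were scaled by TMM, and the robust quasi-likelihood test was used with Benjamini-Hochberg adjustment over all genes at 0.05. Log2 CPM used a prior count of 2, and a count of 0 allows 3 counts, or 0.221 to 0.245 CPM, for counting error only. On simulated counts of 14257 genes, 85.9% of the 99 changes made 4-fold were found and 46.4% of the 97 made 2-fold, beside 5 false calls. So few changed genes are unlike the data, where 39.1% passed. The adjustment depends on that share, so these rates do not carry over to this comparison. DESeq2 1.42.0 and limma 3.58.1 were alternatives, with other scalings and filters, a replicate block, each tumour left out, and, for the T cell ratio, the CD3 chain genes as reference and a prior count of 0.5.

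The members and lists were chosen with earlier results of these data known. The rule for naming genes took all members, the 4 genes of each programme list with the smallest adjusted p, a few marker genes, and for each member the 3 genes of highest correlation whose mean log2 CPM was 1 or more. The result of 1 gene, and the counts over the Th17 list, are not reported here. Siglech and the other markers beside a member were named after their values were seen, as were leaving out VC replicate 4 and the replicate block for counts over lists and the paired differences. No source says that tumours of a number share a batch. Deviations from the group means correlated between same-numbered tumours at 0.272, 0.421, 0.175 and 0.376. The mean of the other pairs, -0.105, is no separate contrast, since removal of the group means ties it to these values. Whether the numbers pair the samples was not settled. The replicate block and the paired differences are therefore alternatives beside the main fit, which uses the group only. P-values measure the spread between these tumours, and each group came from 1 cell line. No 2 tumours of a group were alike within sampling noise (chi-square per degree of freedom 10.3 to 57.8).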

Additional observations from a re-analysis of the deposited data

How the results depend on the processing

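All 9 members kept their direction under every alternative and omitted tumour. Maf and Eomes passed in each fit that tested them, and Ikzf2 and Bcl6 in none. Tbx21 passed with DESeq2 (log2 fold change 1.45, adjusted p = 0.0144), limma-voom (1.58, 0.0345), at least 10 counts in every tumour (1.48, 0.0449) and the replicate block (1.54, 0.0233), in a range of adjusted p from 0.0135 to 0.129 over all alternatives; the cause was not tested. The replicate block changed no other call of a member, and 6485 of all genes passed with it. Among lists, the block moved the number of higher genes from 4 to 7 for conventional dendritic cell, from 11 to 14 for T cell, from 6 to 8 for Tfh and from 10 to 12 for Treg-associated genes, and 1 gene of the Th2 list was lower with it. With at least 10 counts in every tumour, Ifng and Eomes were left out. Over the omitted tumours the log2 fold change ranged from 0.86 to 1.23 for Foxp3, from 1.15 to 2.02 for Tbx21, from 1.10 to 2.06 for Ifng, from 0.49 to 0.70 for Prdm1 and from -0.46 to -0.32 for Tcf4, and 2 to 7 members and 2936 to 6840 of all genes passed, against 5 and 5626 with all tumours. Among all genes 3290 passed without VC replicate 2, 2936 without VC replicate 3 and 3837 without miR-21-KD replicate 1. Without miR-21-KD replicates 2, 3 and 4 these were 6840, 3750 and 3366 in turn. The adjusted p of Ifng was 0.0404 to 0.194 and that of Foxp3 0.00197 to 0.0657 over all alternatives. For the T cell ratio, only the small differences of Tbx21 (-0.02 to 0.15) and Ifng (-0.09 to 0.55) changed sign between omitted tumours. Ifng, Tbx21 and Eomes had under 200 counts in every tumour.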

Other observations

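Markers of cells other than T cells were counted in the same way, beside the 19.6% of all genes that were higher (20.4% without VC replicate 4). Of the adipocyte markers 6 of 6 were higher in miR-21-KD tumours (median log2 fold change 2.64), of the fibroblast and pericyte markers 8 of 10 (1.30, and 6 of 10 without VC replicate 4), of the conventional dendritic cell markers 4 of 10 (1.06, and 7 of 10 without VC replicate 4 or with the replicate block), of the NK cell markers 3 of 12 (1.13, and 8 of 12 without VC replicate 4) and of the mast cell markers 1 of 6 (0.39, a call lost without VC replicate 4), with none lower. The counts with all tumours for NK, mast and B cells were near the share of all genes. Of the 8 neutrophil markers (median 0.70) none passed in edgeR, with 2 at an unadjusted p under 0.05, while 2 passed with the replicate block, 2 with DESeq2 and 1 with limma-voom. Of the B cell markers 1 of 8 was higher, with a median of -0.06, and without VC replicate 4 these were 5 of 8 and 2.07. Of the epithelial markers 6 of 8 were higher and 1 lower (1.73) while their summed level was 1288 to 2216 CPM in VC and 850.5 to 1898 CPM in miR-21-KD tumours, and of the 5 keratinocyte and squamous markers tested 3 were higher and 1 lower (2.90).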
